A study of Solanum lycopersicum with 6 samples.

Results

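Late-annotated tomato microRNAs (miRNAs) were followed in green fruit of tomato (Solanum lycopersicum), grown with scarce or regular water and fertilizer. They are the entries numbered miR9469 to miR9479, leaving out miR9474 (whose arms both rose in drought), and miR10528 to miR10542, leaving out miR10532 and miR10537. These rules took 36 of the 137 mature miRNAs in the deposited count table, 22 from the lower numbers and 14 from the higher ones, from 25 hairpin precursors in all. The 3 drought libraries came from plants that, from flowering on, were given liquid fertilizer diluted 500-fold a single time each week and no other water. The 3 control libraries came from plants given the same diluted fertilizer and plain water on alternating days. All plants grew in a greenhouse, with days (light) of 12 h at 25 °C and nights (dark) of 12 h at 20 °C. The labels name neither the cultivar nor the plants behind each library, so every p-value refers to the spread among these 6 libraries, part or all of which may be technical. Drought plants also received less fertilizer, so water and nutrient supply cannot be told apart. The table lists miRNAs only, so the fruit label was not checked against tissue markers.

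A plant miRNA is cut by a Dicer-like enzyme from a folded precursor as a short duplex, whose strands are named 5p and 3p by the side of the hairpin they come from. Usually 1 strand is loaded into an Argonaute protein and guides the cleavage or repression of matching mRNAs, and the other strand is degraded. miRNAs are numbered in the order in which they are registered, so the high numbers mark entries described after the families shared by many land plants. As background, miRNAs known from few species tend to be weakly expressed, and their targets are less well established. No target is named here for any of the 36 entries.

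The libraries differed in depth and composition before any miRNA was compared. Drought libraries held 430732 to 468711 miRNA counts and control libraries 644434 to 749332. Drought library 2 stood apart from drought libraries 1 and 3: its scaling factor (TMM, which balances libraries on the bulk of their miRNAs) was 1.35, against 0.848 and 0.993 in drought libraries 1 and 3 and 0.909 to 1.003 in control libraries. Results that rest on it are given with and without it. Levels are given as CPM, counts per 1e+06 of the scaled library size.

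Most of the late-annotated miRNAs were rare in this fruit. A count was recorded for 34 of the 36, and 23 had a count in each of the 6 libraries. Drought libraries 1, 2 and 3 held counts for 29, 30 and 25 of the members and control libraries 1, 2 and 3 for 30, 27 and 30. The means were 28.0 ± 2.6 members in drought and 29.0 ± 1.7 in control (SD, n = 3 each; two-sided exact permutation p = 0.7, where 3 against 3 cannot go below 0.1). These numbers were not corrected for the lower depth of the drought libraries. With thinned counts, drought libraries 1, 2 and 3 held counts for 29, 30 and 25 members and control libraries 1, 2 and 3 for 28, 27 and 30. miR10541 and miR10535b were at 0 in all 6 libraries, a count that allows a level of up to 0.883 per 1e+06 counts, from counting error alone. The total over all libraries was under 100 counts for 20 of the 36 members, and the median member had 49.0 counts, against a median of 542 for the 63 entries from miR156 to miR408, families shared by many land plants. The filter on low counts kept 17 of the 36 members for testing, 12 of 22 from the lower numbers and 5 of 14 from the higher ones, against 51 of the 63 conserved entries. The other 38 rows, numbered above miR408 and not members, had a median of 1307.5 counts, and 31 of them were tested. Low counts were thus a trait of most members and not of all entries numbered after the conserved ones.

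**Figure D1:**
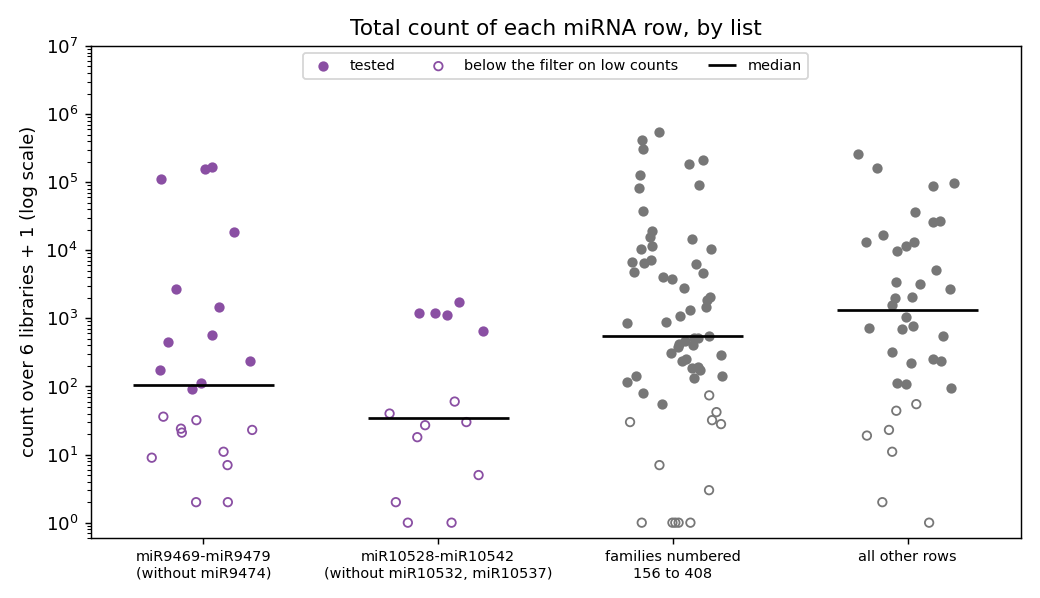
Total count over 6 libraries plus 1 (log scale) of each of the 137 miRNA rows, by list, with filled points for rows that entered the test, open points for rows below the filter on low counts and a black line at the median. The members (purple) include 2 rows at a count of 0, and the 4 most abundant members all belong to miR9469 to miR9479.

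The 17 members that had counts but were below the filter had totals of 1 to 59. miR10540 had the highest of these totals, with 9, 8 and 7 counts in drought and 11, 16 and 8 in control. miR10531 had 6, 9 and 6 counts in drought and 8, 7 and 3 in control, and miR10536 had 8, 4 and 4 in drought and 2, 3 and 8 in control. miR10529 had 3, 6 and 3 counts in drought and 2, 0 and 3 in control. For miR10529 and miR10531 the scaled drought levels lay above all scaled control levels, at counts near the limit that a count of 0 allows. With no filter on low counts, 0 of these 17 members passed and 0 had an unadjusted p under 0.05 (edgeR, smallest adjusted p = 0.283), and the log2 fold change of miR10529 was 1.68 ± 0.99 (SE). miR10539 had 4 counts in drought library 2 and 0 in each of the other 5 libraries. miR10535a, miR9473-3p and miR9469-5p had a single count each, miR10535a and miR9473-3p in control library 1 and miR9469-5p in drought library 1.

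A few members were among the abundant miRNAs of the fruit. By mean CPM, miR9471a-3p, miR9471b-3p, miR9470-3p and miR9475-5p ranked 8, 9, 11 and 20 of the 137 rows, and these 4 held 97.4% of all counts of the 36 members. Together the members took 8.23%, 20.2% and 9.10% of the miRNA counts in drought libraries 1, 2 and 3 and 16.5%, 13.6% and 12.9% in control libraries 1, 2 and 3. By these counts the highest and the lowest share lay in the drought group, at 20.2% in drought library 2 (exact 95% binomial interval 20.1 to 20.3%) and 8.23% in drought library 1 (8.15 to 8.31%), counting error only. Relative to the scaled library sizes, which serve for the CPM levels, the members took 9.71%, 15.0% and 9.16% in drought libraries 1, 2 and 3 and 18.1%, 13.5% and 13.4% in control libraries 1, 2 and 3, so that control library 1 was highest and drought library 2 lay within the control range. Without scaling the means were 12.5% ± 6.68 in drought and 14.3% ± 1.88 in control (SD, n = 3 each; two-sided exact permutation p = 0.6). Without drought replicate 2 that unscaled difference, drought minus control, was -5.66 percentage points in place of -1.82 (exact permutation p = 0.1, the smallest that 2 against 3 allows). Without the left-out miR10532 and miR10537, miR10528 to miR10542 contributed little. Their share was 0.153%, 0.335% and 0.169% of the counts in drought libraries 1, 2 and 3 and 0.144% to 0.158% in control libraries. The 3 most abundant members held 93.3% of the members' counts. With miR9474, miR10532 and miR10537 put back, the 3 most abundant entries held 80.3% of the larger set. The shares therefore also depend on where the set was drawn, and do not describe the whole number range.

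**Figure D2:**
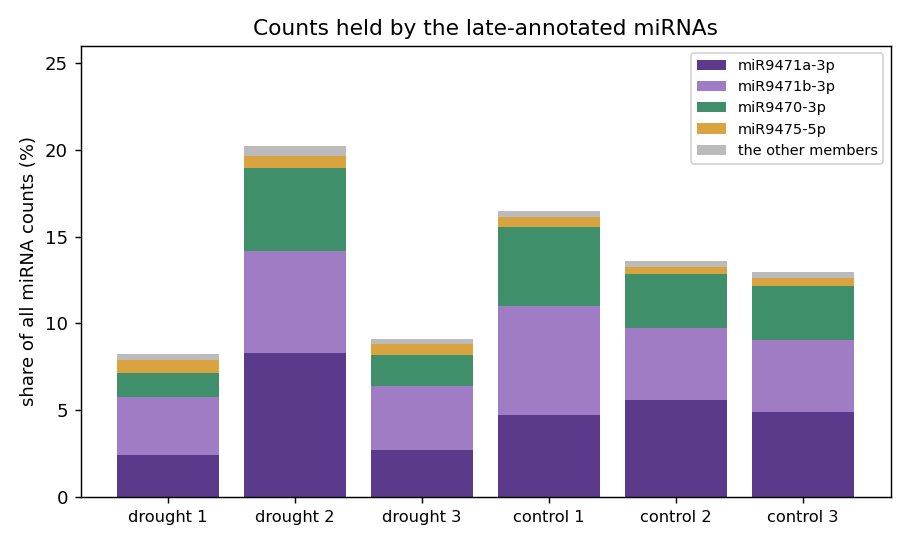
Share of all miRNA counts (%) held by the late-annotated members in each library, stacked by the 4 most abundant members and the other 32 together. Drought library 2 reaches 20.2% and drought libraries 1 and 3 stay at 8.23% and 9.10%, with control libraries between 12.9% and 16.5%.

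Arm use was compared for the 11 precursors with both arms in the table, all of them from miR9469 to miR9479. None of the entries from miR10528 to miR10542 is split into arms in the table. The 3p arm was the more abundant in 8 of the 11 (miR9469, miR9470, miR9471a, miR9471b, miR9476, miR9477, miR9478 and miR9479) and the 5p arm in 3 (miR9472, miR9473 and miR9475). In 6 of the 11 the major arm held over 99% of the counts. Adapter ligation favours some ends over others, so a ratio describes these libraries and compares only the same precursor between groups.

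miR9471b was counted with 157400 reads of the 3p arm and 31 of the 5p arm, a major arm share of 99.98% (exact 95% binomial interval 99.97 to 99.99%, counting error only). In miR9471a the 3p arm had 165257 counts and the 5p arm 236, and in miR9470 they had 110229 and 456. miR9475 leaned the other way, with 18837 counts of the 5p arm and 92 of the 3p arm, as did miR9472 with 2685 against 6 and miR9473 with 565 against 1. The rare precursors were less clear. miR9477 had 20 counts of the 5p arm and 22 of the 3p arm, so that its 3p share of 52.4% had an interval of 36.4 to 68.0%, and miR9479 had 10 against 23. miR9476 was intermediate with 171 counts of the 5p arm and 1451 of the 3p arm, a 3p share of 89.5%.

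The arm ratios did not change past the threshold with drought. Of 26 precursors of the table with enough counts, 0 passed an adjusted p of 0.05 (limma on the log2 ratio of 5p to 3p counts, Benjamini-Hochberg over the 26; 0% called), 7 of these being members. With edgeR 0 of 26 passed too. At an unadjusted p under 0.05 there were 0 of the 7 members and 3 of the 26 (limma, 11.5%; edgeR also 0 and 3). Other settings moved single members under that limit. For miR9471b the limma unadjusted p was 0.0301 with 2 added to each count, 0.00883 without drought replicate 1 and 0.0238 without control replicate 1. For miR9478 it was 0.0473 without control replicate 2, and neither passed after adjustment. Without drought replicate 1 nearly all precursors were given the same SE of 0.66. The 0.00883 of miR9471b is thus not on the footing of the main fit (limma unadjusted p = 0.0526). The largest change among the 7 was that of miR9471b, whose log2 ratio of 5p to 3p counts was -12.5, -11.1 and -11.5 in drought libraries 1, 2 and 3 and -12.2, -13.4 and -13.6 in control libraries 1, 2 and 3. Drought library 1 lay within the control range and the other drought libraries above it. The change, drought minus control, was 1.37 ± 0.61 on the log2 scale (SE, n = 3 each; limma adjusted p = 0.273), and it rested on 2 to 12 counts of the 5p arm per library. The ratio of miR9475 was steady, at 7.68 ± 0.39 in drought and 7.68 ± 0.27 in control (log2, SD, n = 3 each), with a change of -0.01 ± 0.50 (SE).

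miR9470 showed the spread within the drought group. Its log2 ratio of 5p to 3p counts was -7.04, -9.01 and -6.94 in drought libraries 1, 2 and 3 and -8.75, -7.39 and -7.68 in control libraries 1, 2 and 3. Drought library 2 was the lowest of all 6 and drought libraries 1 and 3 were the highest. On the CPM scale the arms differed there in opposite directions. The 3p arm stood at 35314 CPM in drought library 2 against 16269 and 18290 in drought libraries 1 and 3. The 5p arm stood at 67.9 CPM in drought library 2 against 122 and 147. These 5p levels came from 46, 43 and 63 counts in drought libraries 1, 2 and 3. The 5p gap between drought libraries 1 and 2 thus came largely from library scaling.

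**Figure D3:**
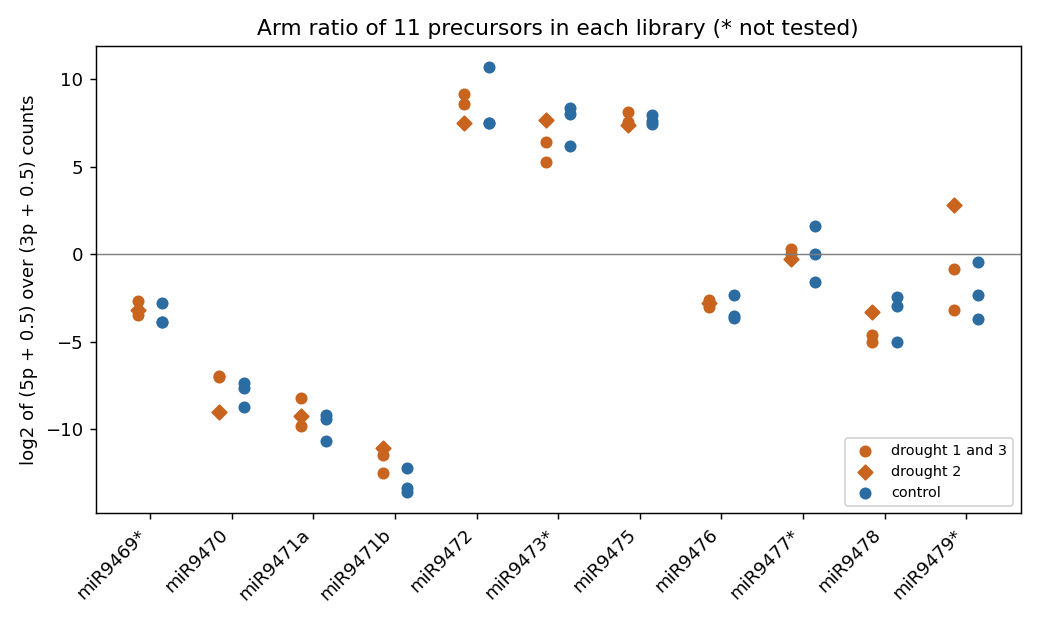
Log2 ratio of 5p to 3p counts, with 0.5 added to each, in every library for the 11 member precursors, drought libraries left of control libraries and drought library 2 as a diamond. Values below 0 mean more 3p than 5p. The drought and control points lie close together for miR9475, at 7.68 on average in both groups, and miR9471b lies lowest in both groups.

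With all 6 libraries, none of the late-annotated miRNAs changed past the threshold. Of the 17 tested members 0 passed an adjusted p of 0.05 and 0 had an unadjusted p under 0.05 (edgeR quasi-likelihood test, Benjamini-Hochberg over the 99 tested rows), while 20.2% of all tested rows passed and 34.3% had an unadjusted p under 0.05. That share includes both arms of the left-out miR9474: with miR9474, miR10532 and miR10537 put back, 2 of 21 tested entries rose, both of them miR9474, and 0 fell. The count of 0 therefore depends on where the set was drawn, with earlier results known. DESeq2 also passed 0 members, against 26.3% of all tested rows, with miR9472-5p under 0.05 before adjustment. It gave no p-value for miR10528, whose log2 fold change there was 1.53 ± 0.71 (SE), so that member was not judged by DESeq2. Log2 fold changes, drought over control, were positive in 10 members (9 with the size factors of DESeq2) and negative in 7, and ran from -0.97 for miR9473-5p to 1.44 for miR10528. The median was 0.16, and 0.16 over all 99 tested rows. With library totals alone both medians were 0.27, and with upper-quartile scaling both were 0.40. The 95% intervals were wide, with a median half-width of 0.92 on the log2 scale, so a change of 1 log2 unit in at least 1 direction was left inside the interval for all but 1 of the 17 members, miR10534.

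The most abundant members were the 3p arms of miR9471. miR9471a-3p stood at 28754, 61507 and 26988 CPM in drought libraries 1, 2 and 3 and at 52132, 55559 and 50859 CPM in control libraries 1, 2 and 3. Drought libraries 1 and 3 were below all control libraries and drought library 2 above them. The log2 fold change was -0.44 ± 0.38 (SE, n = 3 each; edgeR adjusted p = 0.410; 95% interval -1.28 to 0.41). miR9471b-3p, from the neighbouring precursor, stood at 39211, 43517 and 37214 CPM in drought and 68752, 41343 and 43141 CPM in control. Here the groups overlapped and control library 1 alone was high (log2 fold change -0.35 ± 0.32; edgeR adjusted p = 0.438). Without control replicate 1 the log2 fold change was -0.08, and without drought replicate 2 it was -0.57.

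RefSeq's gene list for assembly SLM_r2.1 holds 24 of the 25 member precursors (all but miR10536). It places MIR9471a and MIR9471b next to each other with no gene between them. If reads that match both 3p arms were given to 1 of them, these arms could trade counts. The ratio of miR9471a-3p to miR9471b-3p counts was 0.733, 1.41 and 0.725 in drought libraries 1, 2 and 3 and 0.758, 1.34 and 1.18 in control libraries 1, 2 and 3, so that low and high ratios occurred in both groups (exact two-sided permutation p = 0.8). Summed, the 3p arms stood at 67965, 105025 and 64202 CPM in drought and 120885, 96902 and 94000 CPM in control, where drought library 2 lay within the control range and drought libraries 1 and 3 below it.

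miR9470-3p was likewise higher in drought library 2 than in drought libraries 1 and 3. It stood at 16269, 35314 and 18290 CPM in drought libraries 1, 2 and 3 and at 50317, 31336 and 32453 CPM in control libraries 1, 2 and 3. Its log2 fold change was -0.71 ± 0.39 (SE; edgeR adjusted p = 0.233; 95% interval -1.58 to 0.16). miR9473-5p, a weaker entry, stood at 50.6, 158 and 101 CPM in drought and 183, 201 and 226 CPM in control, so that all drought libraries were below all control libraries. Its log2 fold change was -0.97 ± 0.48 (edgeR adjusted p = 0.187; 95% interval -2.04 to 0.10). miR9472-5p stood at 772, 423 and 449 CPM in drought and 1380, 715 and 891 CPM in control, with drought library 1 within the control range (log2 fold change -0.86 ± 0.41; edgeR adjusted p = 0.177).

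Other members of the lower numbers had higher means in drought, again without passing. miR9475-5p stood at 9218, 5332 and 6175 CPM in drought and at 6215, 3835 and 4353 CPM in control, and the groups overlapped (0.52 ± 0.33 on the log2 scale, edgeR adjusted p = 0.275). Its minor arm miR9475-3p stood at 47.9, 31.6 and 21.0 CPM in drought and 34.9, 18.6 and 16.6 CPM in control, and its log2 fold change was 0.51 ± 0.49. miR9476-5p stood at 66.6, 60.0 and 60.8 CPM in drought and 44.9, 44.9 and 36.0 CPM in control, so that the groups did not overlap. It had 25 to 38 counts per library, and its log2 fold change of 0.57 ± 0.36 did not pass (edgeR adjusted p = 0.275). The major arm miR9476-3p stood at 559, 426 and 376 CPM in drought and 228, 520 and 467 CPM in control, where the groups overlapped.

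The remaining arms were rare and their groups overlapped. miR9478-3p stood at 42.6, 53.7 and 28.1 CPM in drought and 18.3, 24.8 and 33.3 CPM in control (log2 fold change 0.70 ± 0.44, and 0.31 without drought replicate 2). miR9470-5p stood at 122, 67.9 and 147 CPM in drought and 116, 186 and 158 CPM in control (log2 fold change -0.45 ± 0.44). miR9471a-5p stood at 95.9, 99.5 and 28.1 CPM in drought and 86.5, 32.5 and 72.1 CPM in control, and its log2 fold change of 0.23 ± 0.55 was -0.19 without drought replicate 2. Below the filter, miR9471b-5p had 2, 12 and 5 counts in drought and 8, 2 and 2 in control, miR9478-5p had 0, 3 and 0 in drought and 1, 0 and 4 in control, and miR9472-3p had 0, 1 and 0 in drought and 0, 2 and 3 in control.

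**Figure D4:**
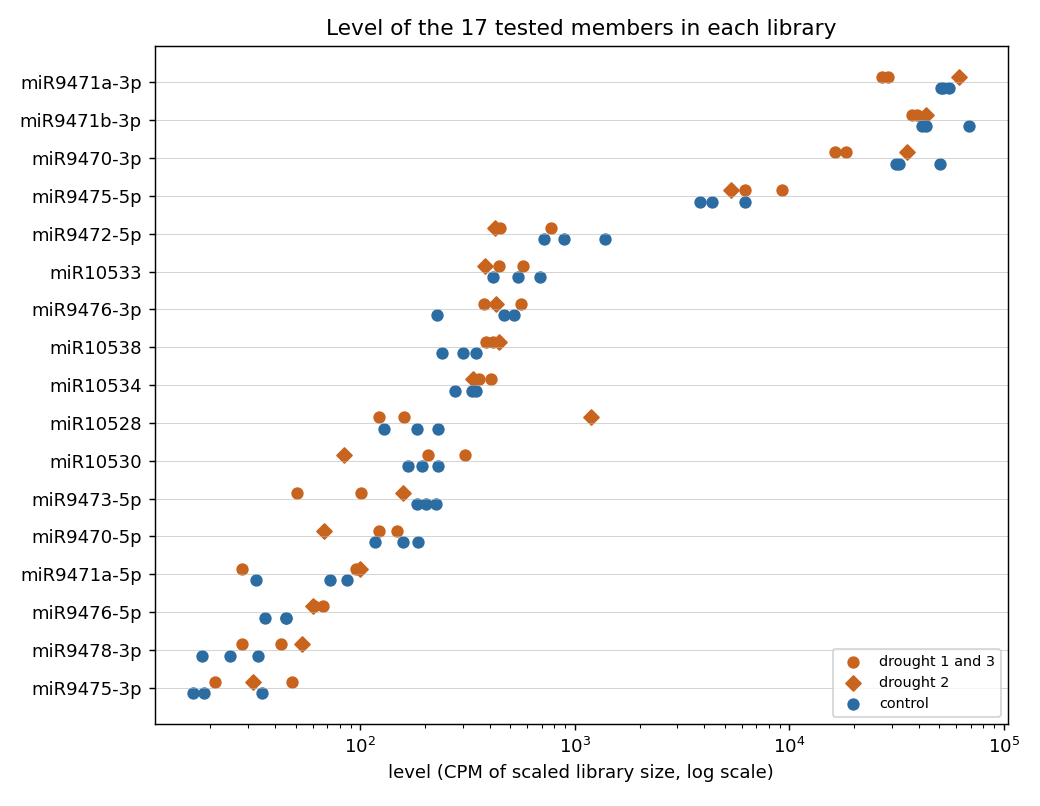
Level (CPM of scaled library size, log scale) of the 17 tested members in each library, drought above control, with drought library 2 as a diamond. For miR10528 drought library 2 lies at 1191 CPM, far from the other 5 libraries, and for miR9471a-3p and miR9470-3p it lies within or above the control libraries while drought libraries 1 and 3 lie below them.

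From miR10528 to miR10542, 5 entries were tested, and all 5 were of moderate level. miR10528 had the largest fold change of the members, and a single library carried it. It stood at 160, 1191 and 122 CPM in drought libraries 1, 2 and 3, from 60, 754 and 52 counts, and at 231, 184 and 129 CPM in control libraries 1, 2 and 3. Its log2 fold change of 1.44 ± 0.80 (SE; edgeR adjusted p = 0.233) was -0.52 without drought replicate 2 (edgeR adjusted p = 0.455). miR10530 had the opposite order, at 309, 83.7 and 206 CPM in drought and 193, 231 and 166 CPM in control, with drought library 2 the lowest of all 6 libraries. Its log2 fold change of 0.01 ± 0.51 was 0.24 without drought replicate 2, -0.41 without drought replicate 1 and -0.10 with the size factors of DESeq2.

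The other 3 varied less between libraries. miR10538 stood at 415, 441 and 383 CPM in drought and 239, 300 and 345 CPM in control, groups that did not overlap (log2 fold change 0.49 ± 0.36; edgeR adjusted p = 0.335; 0.29 without drought replicate 2). miR10534 averaged 365 ± 36.4 CPM in drought and 318 ± 37.2 CPM in control (SD, n = 3 each), and the 95% interval of its log2 fold change ran from -0.59 to 0.99. miR10533 stood at 442, 379 and 575 CPM in drought and 544, 413 and 687 CPM in control, and the groups overlapped (log2 fold change -0.24 ± 0.36). In all, the drought and control libraries did not overlap for 3 of the 17 tested members (miR9476-5p and miR10538 higher in drought, miR9473-5p lower), against 37.4% of all 99 tested rows.

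Leaving out drought library 2 changed the result for 3 members. Without drought replicate 2, 3 of 18 tested members fell and 0 rose, while 40.6% of all 101 tested rows passed and 20.8% passed as falls. miR9470-3p fell with a log2 fold change of -1.29 ± 0.38 (SE; edgeR adjusted p = 0.00291), miR9473-5p with -1.58 ± 0.51 (edgeR adjusted p = 0.00723) and miR9471a-3p with -1.08 ± 0.37 (edgeR adjusted p = 0.0120). miR9471b-3p stood at -0.57 ± 0.36 and did not pass (edgeR adjusted p = 0.230). The share of members that fell was thus no higher than that of falls among all rows, and leaving out any other single library passed 0 members. Drought library 2 lay over 1 log2 unit from the mean of drought libraries 1 and 3 for 5 of the 17 tested members and for 32 of all 99 tested rows (on log2 of CPM + 10). The p-values of this fit are not on the footing of the main fit. For miR9475-5p the log2 fold change was 0.52 ± 0.33 (SE) with all 6 libraries (edgeR unadjusted p = 0.146). Without drought replicate 2 it was 0.54 ± 0.37 (edgeR unadjusted p = 0.145). A lower ratio of change to SE thus gave much the same p-value, and numbers of passing rows are not directly comparable between these fits. What sets drought library 2 apart was not tested.

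**Figure D5:**
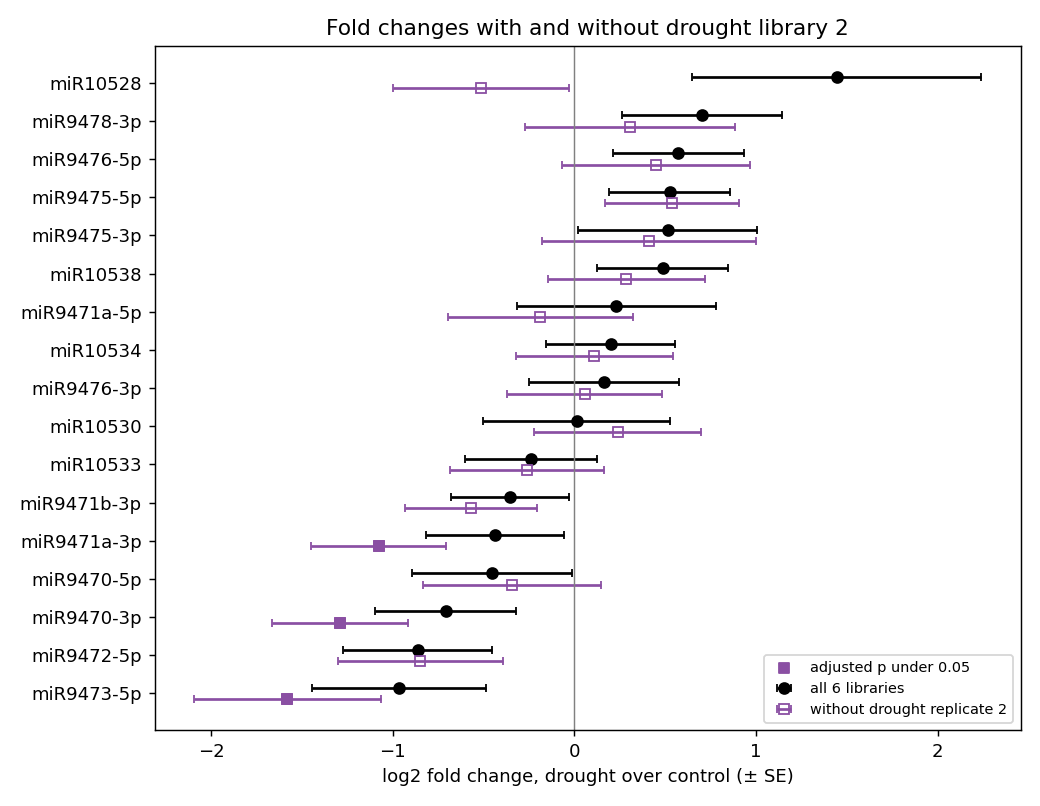
Log2 fold change, drought over control, with its SE for the 17 tested members, with all 6 libraries (black) and without drought replicate 2 (purple; filled where the adjusted p was under 0.05). The filled points are miR9471a-3p, miR9470-3p and miR9473-5p, and miR10528 turns to -0.52 without that library.

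In the authors' deposited table, 2 of the 34 members with a p-value had a false discovery rate p under 0.05, against 24.8% of the 129 rows that have one. In the authors' deposited table these were miR9476-5p, with a log2 fold change of 0.63 and a false discovery rate p of 0.0294, and miR9472-5p, with -0.81 and 0.0424. The test behind the authors' deposited table is not named in its header. The directions are those of the edgeR fit, where neither passed.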

How the data were processed

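Per the labels' protocols, 240 ng of total RNA went into each NEBNext small RNA library. The authors deposited 1 table of whole-number counts per mature miRNA and library, with no normalization. Its columns headed CPM hold a scaled signal deposited by the authors, counts over 1 constant per library, and were not used. The fold changes, log2 fold changes and p-values of the authors' deposited table were only copied. Trimmer, aligner, miRNA release and genome build were not given in the sources used here, and coordinates were left out. Adapter ligation favours some ends, and PCR copies are not marked.

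The main test was that of edgeR 4.0.16, run in R 4.3.3 (quasi-likelihood, robust, TMM, two-sided, group as the only term) after filterByExpr (minimum count 10, minimum total count 15), which kept 99 of 137 rows. Rows were taken as passing at a Benjamini-Hochberg adjusted p under 0.05 over all tested rows. SEs were derived from the log2 fold change and its quasi-likelihood F. Arm ratios, log2 of (5p + 0.5) over (3p + 0.5), were tested with limma 3.58.1 for precursors averaging 10 counts over both arms with at least 6 counts of the weaker arm. Single values per library were compared by exact permutation over all 20 assignments. The scripts were tested on simulated data. Totals of 430732 to 749332 counts put the limit for a count of 0 (3 counts) at 4.00 to 6.96 counts per 1e+06 counts in single libraries.

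Alternatives were DESeq2 1.42.0, other scalings, no filter, a replicate block, thinned counts, other pseudocounts and leaving out each library. Values per library, as CPM or as counts below the filter, were given for the 8 members with the highest mean CPM, for both arms of precursors in the arm test and for any member past the threshold. miR9473-5p, miR10528, miR10530, miR10534 and the low-count members were named after their values were seen. The members and lists were chosen with earlier results of these data known.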

Additional observations from a re-analysis of the deposited data

How the results depend on the processing

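The number of members past the threshold (0) was the same under all other scalings, DESeq2, no filter and the sum of the miR9471 3p arms, and ran from 0 to 3 when single libraries were left out. With the 99 rows held fixed, a setting chosen after seeing the data, it was again 3 without drought replicate 2, 39 rows passed in all, the members' median was -0.093 and miR9471a-5p stood at -0.093. Over the whole table the count of 20 (9 higher, 11 lower) ran from 9 without control replicate 2 to 41 without drought replicate 2 (13 without control replicate 3), and the split was 16 higher and 11 lower with library totals alone and 16 and 10 with upper-quartile scaling. The members' median of 0.16 was 0.40 with upper-quartile scaling and ran from -0.090 to 0.20 when single libraries were left out. The count of arm ratio changes (0) ran from 0 to 3, with 0 members in each. The cause was not tested.

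With the replicate number as a block, 12 rows, 0 members and 1 arm ratio passed. The labels do not say whether same-numbered libraries belong together. The correlations of their deviations were 0.10, -0.24 and 0.0081 for numbers 1, 2 and 3. Drought library 1 correlated best with control library 1, and drought libraries 2 and 3 with another number. So few libraries cannot settle whether they were paired.

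Leaving out single libraries, the share difference ran from -5.66 to 0.32 percentage points and the difference in members with a count from -2.0 to 0.50. The log2 fold changes that turned sign ran from -0.36 to 0.018 for miR10533, -0.19 to 0.68 for miR9471a-5p and -0.12 to 0.51 for miR9476-3p. Those of miR10528, from -0.52 to 1.99, and miR10530, from -0.41 to 0.24, turned sign too. Arm ratio changes that turned sign ran from -0.13 to 0.95 for miR9470, -0.55 to 0.89 for miR9472 (0.74 with the edgeR arm term) and -0.23 to 0.15 for miR9475. Among members that did not turn sign, ranges were -1.29 to -0.43 for miR9470-3p, -0.65 to -0.25 for miR9470-5p, -1.08 to -0.16 for miR9471a-3p, -0.57 to -0.08 for miR9471b-3p, -1.13 to -0.55 for miR9472-5p, 0.26 to 0.91 for miR9475-3p, 0.32 to 0.75 for miR9475-5p, 0.45 to 0.74 for miR9476-5p, 0.31 to 1.10 for miR9478-3p and 0.29 to 0.73 for miR10538. The ranges were -1.58 to -0.59 for miR9473-5p and 0.11 to 0.38 for miR10534, which did not turn sign either. Depth limits the 17 members with counts below the filter.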

Other observations

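The gene table lists MIR9470 next to MIR10537, which is not among the members, with no gene between them. miR10537 stood at 346, 452 and 407 CPM in drought libraries 1, 2 and 3 and at 903, 633 and 757 CPM in control libraries 1, 2 and 3. All drought libraries lay below all control libraries, with a log2 fold change of -0.93 ± 0.34 (SE, n = 3 each; edgeR adjusted p = 0.0835), and drought library 2 was not set apart from the other drought libraries as it was for miR9470-3p. miR10535a and miR10535b, with 1 other gene between their precursors in that table, had 1 and 0 counts over all 6 libraries.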
